A study of Mus musculus with 6 samples.

Results

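The fibrillar collagen genes were examined in primary cultures of mouse testicular peritubular myoid cells, the contractile smooth-muscle-like cells that wrap the seminiferous tubules. The cultures came from C57BL/6J mice, and RNA sequencing covered 3 untreated libraries and 3 libraries from cells exposed to 50 nM endothelin-1 (ET-1, labelled ET1) for 5 min. All cultures shared the same strain, medium and primary passage, and no genetic change or sorting is named in the labels, which also do not give the age or number of the animals. The 10 genes were the rows of the deposited table whose symbol was Col1a1, Col1a2, Col2a1, Col3a1, Col5a1, Col5a2, Col5a3, Col11a1, Col24a1 or Col27a1, and all 10 were found among 19285 genes with values. Values are FPKM, which divides a gene's fragments by transcript length and library depth, so levels of different genes can be set side by side.

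Fibrillar collagens form the rope-like fibrils that give connective tissue its tensile strength. Each molecule is a helix wound from collagen chains whose helical part is a repeat of triplets that each begin with glycine, and it is secreted as a procollagen whose end pieces are cut off before fibrils assemble. Type I collagen holds the chains of Col1a1 and Col1a2, and type III is made of the Col3a1 chain alone. The type V chains (Col5a1, Col5a2 and Col5a3) and the type XI chain of Col11a1 lie inside larger fibrils and limit their diameter, and Col2a1 encodes the main collagen of cartilage. Col24a1 and Col27a1 encode members whose helix is interrupted, so that their uninterrupted runs of triplets are shorter. In the testis, peritubular cells lay down collagen in the wall of the tubule.

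The glycine repeat was read from the coding sequences of GENCODE release M21 (GRCm38), matched to the deposited genes by RefSeq transcript for all 10. The longest uninterrupted run of glycine triplets had 338 triplets in Col1a1, 339 in Col1a2 and 344 in Col3a1. It had 338 in Col5a1, 339 in Col5a2, 337 in Col5a3, 338 in Col11a1 and 339 in Col2a1. Col24a1 and Col27a1 held 216 and 217 triplets. The first 54 bases of the run are shown for 6 of the genes whose levels are compared below. Capitals mark the glycine codon that opens each triplet, and glycine codons at other positions are in lower case.
Col1a1: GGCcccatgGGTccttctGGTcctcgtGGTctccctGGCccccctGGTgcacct
Col1a2: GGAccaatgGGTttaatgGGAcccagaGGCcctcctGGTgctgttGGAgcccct
Col3a1: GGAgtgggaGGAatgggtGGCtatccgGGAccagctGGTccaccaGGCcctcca
Col5a2: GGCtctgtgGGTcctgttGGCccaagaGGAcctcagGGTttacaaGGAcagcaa
Col11a1: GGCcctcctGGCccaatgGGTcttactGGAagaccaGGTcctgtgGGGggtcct
Col27a1: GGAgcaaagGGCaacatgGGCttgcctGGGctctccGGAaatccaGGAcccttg
In these lines a glycine codon opens each group of 3 codons, and the codons between them differ from gene to gene. GGT made up 55.9% of the glycine codons that open the triplets in the run of Col1a1 and 15.7% in that of Col27a1. The member transcripts shared no stretch of 50 bases with one another, and shared stretches of 25 bases were found between 3 pairs: 1 between Col1a1 and Col1a2, 2 between Col5a2 and Col11a1, and 8 between Col5a1 and Col5a3. No exon of another protein-coding gene overlapped an exon of a member in this annotation. Col3a1 shared 141 exonic bases with the predicted miRNA gene Gm47302 on the same strand, and Col5a1 shared 99 and 113 exonic bases with a pair of transcripts on the opposite strand.

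The RefSeq promoter table (GRCm38.p6) held 7 of the 10 genes (Col1a2, Col3a1, Col5a1, Col5a3, Col11a1, Col24a1 and Col27a1). The 250 bases before the transcript start are shown for Col1a2 and Col11a1, which were higher in the ET-1 libraries, and for Col3a1, whose change had the other sign. Capitals mark matches, on either strand, to CCAAT (the box bound by NF-Y), GGGCGG (the GC box bound by Sp1), TATAAA (the TATA box) and TGANTCA (the AP-1 site). No matches overlapped.
Col1a2, chr6:4505368-4505617, plus strand: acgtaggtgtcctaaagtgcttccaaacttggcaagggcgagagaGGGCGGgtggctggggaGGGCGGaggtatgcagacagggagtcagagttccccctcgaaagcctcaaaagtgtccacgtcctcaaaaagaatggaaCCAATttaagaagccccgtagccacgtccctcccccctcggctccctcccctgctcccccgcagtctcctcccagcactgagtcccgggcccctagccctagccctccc
Col11a1, chr3:114030290-114030539, plus strand: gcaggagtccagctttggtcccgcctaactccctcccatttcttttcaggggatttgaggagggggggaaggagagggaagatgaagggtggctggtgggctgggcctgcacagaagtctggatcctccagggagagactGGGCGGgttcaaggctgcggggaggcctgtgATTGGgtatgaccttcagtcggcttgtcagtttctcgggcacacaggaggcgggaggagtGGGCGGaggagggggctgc
Col3a1, chr1:45311288-45311537, plus strand: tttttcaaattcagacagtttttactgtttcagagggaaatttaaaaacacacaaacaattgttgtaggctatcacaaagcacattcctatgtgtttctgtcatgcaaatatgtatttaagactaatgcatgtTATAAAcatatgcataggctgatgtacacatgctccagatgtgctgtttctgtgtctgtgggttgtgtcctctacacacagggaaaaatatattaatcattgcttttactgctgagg
The Col1a2 window held 2 GC boxes and 1 CCAAT box and was 62.0% G and C. The Col11a1 window also held 2 GC boxes and 1 CCAAT box, the latter on the minus strand, and was 62.4% G and C. The Col3a1 window held 1 match to TATAAA, at positions -117 to -112 from the transcript start, and was 35.2% G and C. Whether this match acts as a TATA box was not tested. CCAAT was found in 3 of the 7 member windows and in 33.8% of all 32851 windows of this length in the table, and GGGCGG in 5 of 7 and in 32.7%. TATAAA was found in 1 of 7 and in 12.4%, and TGANTCA in none of 7 and in 6.75%. The window of Col27a1, which was also higher, held GGGCGG but not CCAAT, and that of Col5a3, which did not pass the test, held both. Whether these motifs go with the change was not tested.

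Depth, estimated from the spacing of low FPKM values, was about 17610000 to 18320000 fragments per library. Col1a1 rested on about 19929 to 58872 fragments per library, Col11a1 on about 1207 to 2294 and Col27a1 on about 78 to 362, whereas Col24a1 (5 to 19 fragments) and Col2a1 (2 to 8) were close to the limit of detection. Untreated libraries 1 and 3 were closer to each other (Pearson r = 0.996 on log2 FPKM) than any other pair within a group (0.973 to 0.983) but differed by more than sampling noise, and they were counted as 2 samples. The labels leave unsaid whether the libraries of a group are separate cultures, and p-values therefore reflect only the spread among these libraries, which may be technical. Of the smooth muscle markers of these cells, Acta2, smooth muscle actin, was at 1474 to 1690 FPKM in the untreated and 1529 to 2211 FPKM with ET-1. Tagln was at 1343 to 1581 FPKM in the untreated, and the others were lower, such as Myh11 (43.3 to 51.2) and Lmod1 (32.5 to 38.8). Some markers of other testis cells were also high in the untreated, with the Leydig cell marker Insl3 at 2040 to 4532 FPKM and the Sertoli cell marker Clu at 839.7 to 1879 FPKM.

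In untreated cultures the mean levels ranged from 204 FPKM to below 0.1 FPKM. Mean levels ran from Col1a1 (204 FPKM), Col1a2 (203 FPKM) and Col3a1 (164 FPKM) through Col5a2 (117 FPKM), Col5a1 (30.2 FPKM) and Col11a1 (9.21 FPKM) to Col5a3 (1.85 FPKM), Col27a1 (0.633 FPKM), Col24a1 (0.0867 FPKM) and Col2a1 (0.0733 FPKM). From Col5a2 down to Col24a1 each gene lay above the next in all 3 untreated libraries with no overlap of their ranges. Among the first 4 genes each neighbouring pair had overlapping ranges, as did Col24a1 and Col2a1. In the ET-1 libraries Col5a2 stood above Col3a1 in all 3 libraries, whereas in untreated libraries 1 and 3 Col3a1 stood above Col5a2. Among all 19285 genes, Col1a1 ranked between 391 and 446 in the untreated and between 171 and 247 in the ET-1 libraries, counted from the highest FPKM.

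**Figure D1:**
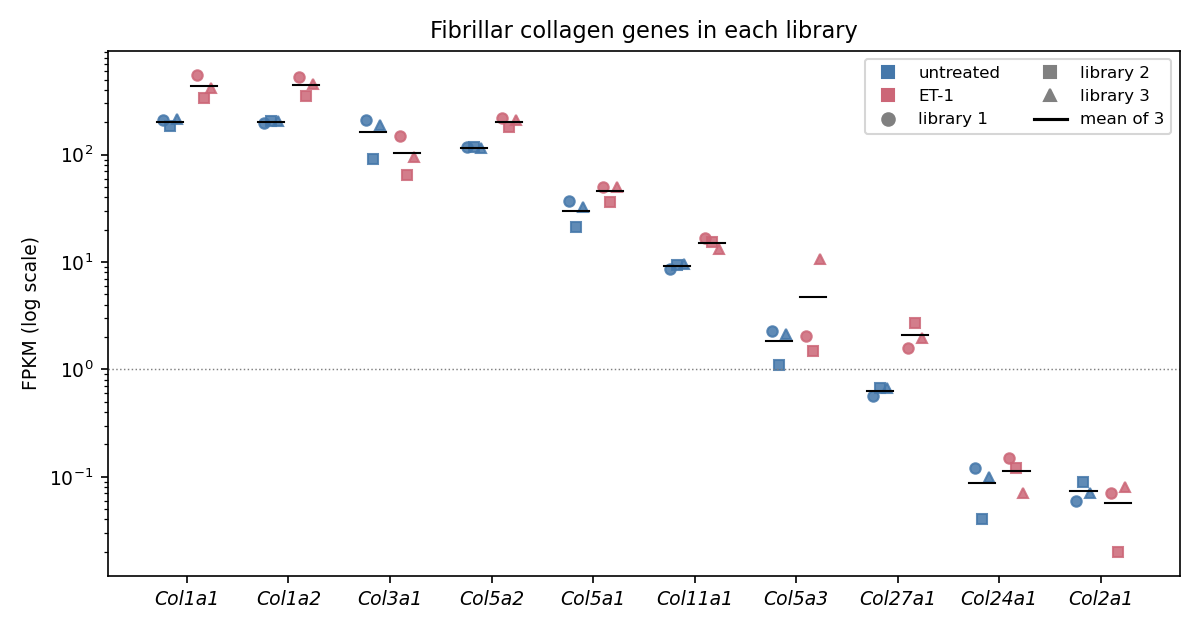
FPKM of the 10 fibrillar collagen genes on a log scale, ordered by untreated mean, with 1 point per library (blue, untreated; red, ET-1; the symbol gives the library number) and a bar at the mean of 3. The red points of Col1a1, Col1a2, Col5a2, Col11a1 and Col27a1 all lie above the blue ones, while those of the other 5 genes overlap.

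Both chains of type I collagen were about 2-fold higher in the ET-1 libraries, and they were so to a similar degree. Col1a1, which encodes the α1 chain (gene ID 12842, chromosome 11, 94936224 to 94953042, mm10, plus strand), was at 210.4, 184.8 and 215.6 FPKM without ET-1 (libraries 1 to 3, in that order here and below) and at 557.4, 340.8 and 413.9 FPKM with it. The lowest ET-1 value lay well above the highest untreated one, and ET-1 library 1 was the highest. The ratio of mean FPKM was 2.15, and the change on the log2(FPKM + 1) scale was 1.07 ± 0.19 (SE; n = 3 each; limma adjusted p = 0.0375). Col1a2, the α2 chain (gene ID 12843, chromosome 6, 4505618 to 4541543, plus strand), was at 195.7, 207.4 and 206.6 FPKM in the untreated and at 533.0, 350.7 and 460.5 FPKM with ET-1. Here the untreated libraries were close together, the ET-1 libraries were spread more widely, and the groups did not overlap. The ratio of means was 2.205 and the log2 change 1.12 ± 0.16 (SE; n = 3 each; adjusted p = 0.0250).

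Col3a1, the type III chain that is often laid down together with type I, had the only negative change among the tested members, and it did not pass the test. The gene (gene ID 12825, chromosome 1, 45311538 to 45349706, plus strand) was at 210.9, 91.3 and 189.6 FPKM in the untreated and at 149.4, 65.1 and 95.6 FPKM with ET-1. Library 2 was the lowest of its group on both sides, and untreated library 2 lay below the ET-1 libraries 1 and 3. The log2 change was -0.65 ± 0.40 (SE; n = 3 each; limma adjusted p = 0.362). Comparing libraries of the same number, Col3a1 was lower in 3 of 3, with ET-1 to untreated ratios of 0.708, 0.714 and 0.504. In the limma fit with the replicate number as a block, Col3a1 was called lower (log2 change -0.65, adjusted p = 0.0357). The labels do not say whether same-numbered libraries are paired, and numbers 1 and 3 are not shown to pair. That limit holds for every use of the block and of same-numbered ratios. Without untreated library 2 the log2 change was -1.03, and without ET-1 library 2 it was -0.36. These were the extremes of the 6 fits that each left out 1 library, and Col3a1 passed limma in 0 of them.

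Of the 3 type V chains, Col5a2 passed the test and Col5a1 and Col5a3 did not, and their changes lay within each other's errors. Col5a2, the α2 chain (gene ID 12832, chromosome 1, 45374331 to 45503282, minus strand), was at 116.9, 118.4 and 114.5 FPKM in the untreated and at 217.9, 179.8 and 211.8 FPKM with ET-1. The untreated libraries were nearly equal and every ET-1 library lay above them. It rose 1.74-fold by the ratio of means, with a log2 change of 0.79 ± 0.10 (SE; n = 3 each; limma adjusted p = 0.0210). Col5a2 and Col3a1 are neighbours on chromosome 1 that lie on opposite strands without overlap.

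Col5a1, the α1 chain of type V (gene ID 12831, chromosome 2, 27886425 to 28039510, plus strand), was at 36.8, 21.4 and 32.4 FPKM in the untreated and at 50.4, 36.2 and 49.9 FPKM with ET-1. ET-1 library 2 lay just below untreated library 1, so the groups overlapped by that value. The log2 change of 0.59 ± 0.22 (SE; n = 3 each) did not pass (limma adjusted p = 0.167), and it passed with the replicate block (adjusted p = 0.0274), where same-numbered ratios were 1.37, 1.69 and 1.54.

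Col5a3, the α3 chain of type V (gene ID 53867, chromosome 9, 20770057 to 20815067, minus strand), was at 2.29, 1.11 and 2.16 FPKM in the untreated and at 2.04, 1.5 and 10.7 FPKM with ET-1. The high mean of the ET-1 group came from ET-1 library 3, and the other 5 libraries lay between 1.11 and 2.29 FPKM. The log2 change was 0.67 ± 0.56 (SE; n = 3 each; limma adjusted p = 0.507) and was -0.02 without ET-1 library 3. ET-1 library 3 also held the highest level of the growth factor Tgfb1 (96.1 FPKM, 25.2 to 38.6 FPKM elsewhere) and of the type VI chain Col6a3 (19.9 FPKM, 3.55 to 7.88 FPKM elsewhere), which was picked after its values were seen.

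Col11a1, the type XI α1 chain that can combine with type V chains in tissues other than cartilage (gene ID 12814, chromosome 3, 114030540 to 114220756, plus strand), was at 8.59, 9.47 and 9.56 FPKM in the untreated and at 16.7, 15.3 and 13.3 FPKM with ET-1. The groups were separate, and the spread within each was small beside the distance between them. It rose 1.64-fold by the ratio of means (log2 change 0.65 ± 0.12, SE; n = 3 each; limma adjusted p = 0.0402). Col2a1, the cartilage chain (gene ID 12824, chromosome 15, 97975602 to 98004724, minus strand), was at 0.06, 0.09 and 0.07 FPKM in the untreated and at 0.07, 0.02 and 0.08 FPKM with ET-1. At this depth a difference in Col2a1 was not detectable, and the gene was below the level needed for testing. Of 10 chondrocyte markers 7 stayed below 1 FPKM in every library, 3 of them (Matn1, Hapln1 and 3110079O15Rik) at 0 throughout.

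The recently described fibrillar chains were low. Col27a1, the type XXVII chain, which has been found mainly in cartilage (gene ID 373864, chromosome 4, 63215412 to 63334991, plus strand), was at 0.56, 0.67 and 0.67 FPKM in the untreated and at 1.57, 2.69 and 1.98 FPKM with ET-1. The untreated libraries rested on 78 to 94 fragments and the ET-1 libraries on 213 to 362, and the groups did not overlap. The ratio of means was 3.28, the highest among the members, and the log2 change 0.90 ± 0.15 (SE; n = 3 each; limma adjusted p = 0.0373). Col27a1 reached the testing level of 1 FPKM in 3 libraries only through the ET-1 group, so a difference was built into its being tested, and without that filter its adjusted p was 0.0563. Col24a1, the type XXIV chain (gene ID 71355, chromosome 3, 145292472 to 145552011, plus strand), was at 0.12, 0.04 and 0.10 FPKM in the untreated and at 0.15, 0.12 and 0.07 FPKM with ET-1, with overlapping groups and too few fragments for a test.

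**Figure D2:**
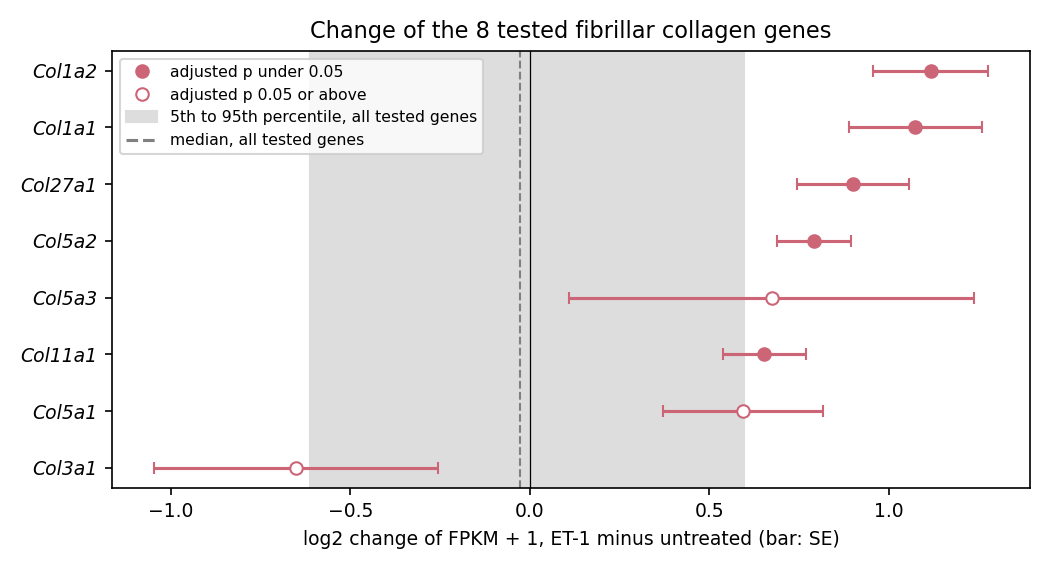
Change of the 8 tested fibrillar collagen genes on the log2(FPKM + 1) scale, ET-1 minus untreated, with the standard error as a bar; filled points had an adjusted p under 0.05. The grey band spans the 5th to the 95th percentile of all 11664 tested genes (-0.61 to 0.60), and the filled points lie between 0.65 and 1.12.

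Of the 10 genes, 5 rose and none fell at a limma adjusted p of 0.05, while 3 were tested without passing and 2 were too low to test. Among all 11664 tested genes 1.57% rose and 1.89% fell. Of the 5, Col1a1, Col1a2, Col5a2 and Col11a1 reached the testing level in both groups. Col27a1 reached it only through the ET-1 group and had to differ to be tested, so it adds no support to this count, to the count of separate groups or to the median. The groups did not overlap in the same 5 members, all higher after ET-1, against 30.9% of all tested genes in either direction (13.2% higher and 17.6% lower). The median log2 change of the 8 tested members, Col27a1 included, was 0.73, beside -0.03 for all tested genes. At an unadjusted p under 0.05, 6 members were higher and 0 lower, Col27a1 included, against 10.6% of all tested genes higher and 13.5% lower. With the replicate block 6 members rose and 1, Col3a1, fell (4.26% and 5.19% of all tested genes).

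The calls depended on single libraries, although no direction of the 5 genes that rose changed. None of the members passed limma without untreated library 1, without untreated library 3 or without ET-1 library 1, although 6, 6 and 5 members were higher at an unadjusted p under 0.05. In the same fits 0.18%, 0% and 0.36% of all tested genes passed as higher, and 7.49%, 6.58% and 9.08% were higher at an unadjusted p under 0.05, so calls were lost across all genes. The count was 2 without untreated library 2, 3 without ET-1 library 2 and 4 without ET-1 library 3. With untreated libraries 1 and 3 averaged as 1 library, 0 members passed (6 higher at an unadjusted p under 0.05), while 2 of all tested genes passed as higher (7.0% at an unadjusted p under 0.05). Without the filter on low values 2 passed, Col1a2 and Col5a2. The log2 changes over the fits that each left out 1 library ran from 0.88 to 1.24 for Col1a1, from 0.98 to 1.28 for Col1a2, from 0.74 to 0.88 for Col5a2, from 0.58 to 0.74 for Col11a1 and from 0.76 to 1.02 for Col27a1.

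Ratios between chains within a library do not depend on how libraries are scaled. The ratio of Col1a1 to Col1a2 was 1.08, 0.891 and 1.04 in the untreated and 1.05, 0.972 and 0.899 in the ET-1 libraries, close to equal amounts of both transcripts in all 6. Its difference between the groups was smaller than the spread within them (exact permutation test, two-sided, p = 0.8, n = 3 each). The ratio of Col3a1 to Col1a1 was 1.003, 0.494 and 0.879 in the untreated and 0.268, 0.191 and 0.231 in the ET-1 libraries. Every ET-1 library had less type III transcript per type I transcript than any untreated library, with untreated library 2 the nearest to the ET-1 group. The difference on the log2 scale was -1.73 (exact permutation test, two-sided, p = 0.1, the smallest value that 3 against 3 libraries can give).

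The ratio of Col5a2 to Col3a1, the neighbours on chromosome 1, was 0.554, 1.30 and 0.604 in the untreated and 1.46, 2.76 and 2.22 in the ET-1 libraries (log2 difference 1.45; exact permutation p = 0.1, n = 3 each). The ratio of Col5a1 to Col5a2 overlapped, at 0.315, 0.180 and 0.283 against 0.231, 0.201 and 0.235 (exact permutation p = 0.5, n = 3 each). The ratio of Col5a1 to Col1a1 also overlapped, at 0.175, 0.116 and 0.1502 against 0.0903, 0.106 and 0.120 (exact permutation p = 0.2, n = 3 each). These 5 ratios were the ones computed. As the smallest p this test can give here is 0.1, none could fall under 0.05, with or without adjusting over them.

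Summed over the 10 genes, FPKM was 782.3, 634.6 and 771.3 in the untreated and 1529, 992.2 and 1258 in the ET-1 libraries. The type I chains together held 56.2 ± 5.1% of that sum in the untreated and 70.2 ± 1.0% in the ET-1 libraries (SD, n = 3 each). Col3a1 held 27.0%, 14.4% and 24.6% in the untreated and 9.77%, 6.56% and 7.60% in the ET-1 libraries. The type V chains together held 20.5 ± 1.5% and 20.4 ± 2.4% (SD, n = 3 each), so their part of the sum differed by less than the spread between libraries.

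**Figure D3:**
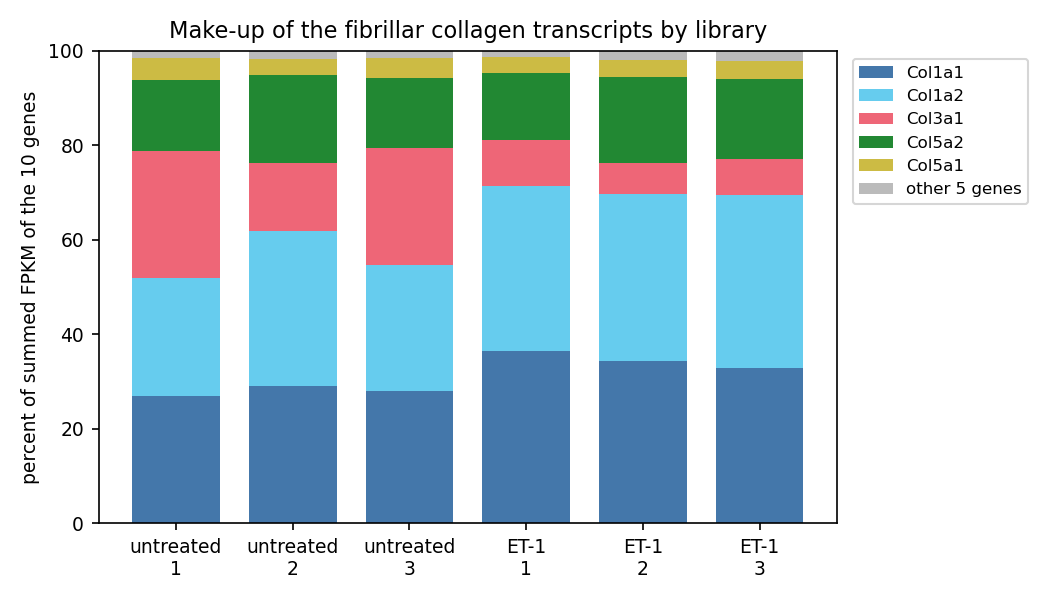
Share of each chain in the summed FPKM of the 10 genes, in percent, for each library. The Col3a1 part is 14.4% to 27.0% in the untreated and 6.56% to 9.77% in the ET-1 libraries, and the blue parts of Col1a1 and Col1a2 take up more of the ET-1 bars.

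Col1a1, Col3a1 and Col5a1 were lowest in library 2 among the untreated libraries and again in library 2 among the ET-1 libraries, as was Col5a3. Col5a2 and Col1a2 did not share that dip in the untreated group, where library 2 was the highest of the 3 for both. In the ET-1 group library 2 was the lowest for Col1a2 and Col5a2, and the highest for Col27a1.

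**Figure D4:**
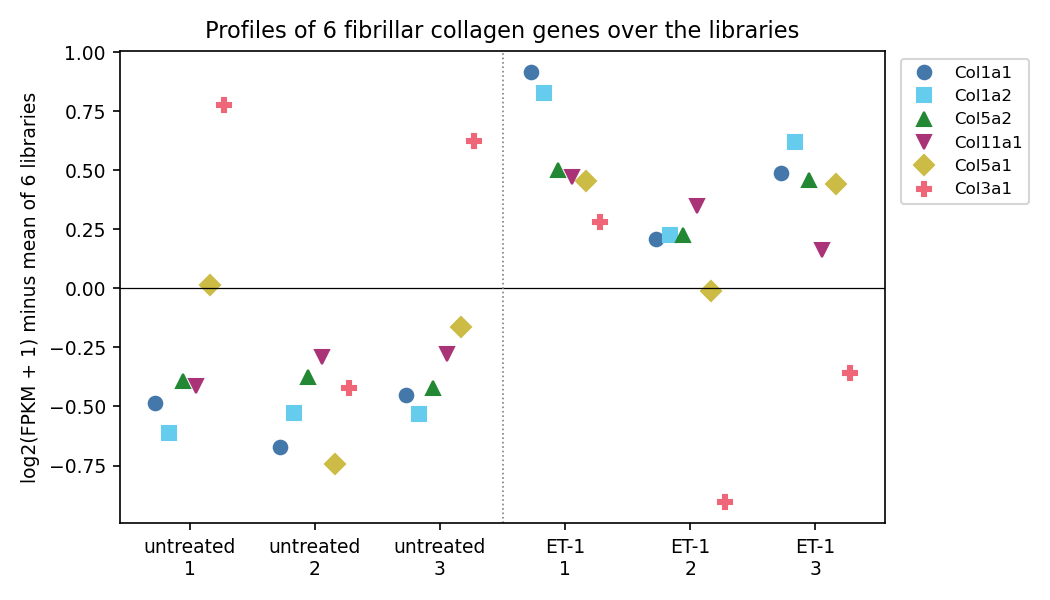
Level of 6 fibrillar collagen genes in each library as log2(FPKM + 1) minus the mean of the gene over the 6 libraries. Col1a1, Col1a2, Col5a2 and Col11a1 lie below 0 in every untreated and above 0 in every ET-1 library, whereas Col3a1 is above 0 in untreated libraries 1 and 3 and in ET-1 library 1.

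The genes whose profile over the 6 libraries was most like that of type I collagen were not collagens. Likeness was the root mean square difference of centred log2(FPKM + 1) values over the 6 libraries, among 11371 tested genes with predicted genes left out. The nearest to the mean profile of Col1a1 and Col1a2 were Gpd1, glycerol-3-phosphate dehydrogenase (0.105), Blvrb, a biliverdin reductase (0.117), Gpc6, a glypican (0.130), Fam20c, a kinase of secreted proteins (0.135), and Slc43a2, an amino acid transporter (0.135). Gpd1 was at 3.85, 3.96 and 3.92 FPKM in the untreated and at 13.5, 7.87 and 11.7 FPKM with ET-1. Col5a2 ranked 46 in this order (0.195), Col11a1 ranked 181 and Col3a1 ranked 10823.

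The nearest to Col3a1 were Tmem176a, a membrane protein (0.105), the cholesterol synthesis enzyme Sqle (0.147), Tmem176b (0.1498), the secreted lipase inhibitor Angptl4 (0.155) and the stromal and endothelial surface marker Cd34 (0.155). Tmem176a was at 120.8, 62.2 and 113.6 FPKM in the untreated and at 89.8, 45.2 and 62.6 FPKM with ET-1, with library 2 lowest in both groups as for Col3a1. Among the members the nearest to Col3a1 was Col5a1, which ranked 7430 of 11372.

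Genes that act on fibrillar collagen were taken from 7 lists with 104 genes, 85 of them tested, of which 4 rose and none fell in limma (14 higher and 8 lower at an unadjusted p under 0.05). Itga11, among the 4, and Fli1, among the 14, reached the testing level only through the ET-1 libraries. They had to differ to be tested, so neither adds support to the counts of this paragraph. Among all tested genes 1.57% rose and 1.89% fell, and 10.6% were higher and 13.5% lower at an unadjusted p under 0.05. With the replicate block 8 rose and 3 fell. Together with the non-fibrillar collagens described below, 6 genes rose. That count was 1 without untreated library 1, without untreated library 2 or without ET-1 library 1, and 0 without untreated library 3. Of the 6 fits that each left out 1 library, the calls of Bgn and Itga11 below passed in 0, Col15a1 in 1, P4ha3 and Mrc2 in 2 and Col16a1 in 5. Of the 19 tested genes that modify and fold procollagen in the endoplasmic reticulum, 1 rose (median log2 change 0.18). It was P4ha3, a catalytic subunit of prolyl 4-hydroxylase, which hydroxylates the prolines that stabilise the helix. P4ha3 was at 8.86, 8.42 and 9.57 FPKM in the untreated and at 26.6, 16.5 and 27.0 FPKM with ET-1 (log2 change 1.26 ± 0.19, SE; limma adjusted p = 0.0291, n = 3 each). The isoform P4ha1 was at 74.7 ± 6.4 and 69.5 ± 1.2 FPKM, and the collagen chaperone Serpinh1 at 545 ± 63 and 627 ± 121 FPKM, and neither passed (SD, n = 3 each).

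None of the 7 tested genes of procollagen export (1 higher and 0 lower at an unadjusted p under 0.05) and none of the 5 of propeptide removal (2 higher and 0 lower) passed limma. In these lists Sec23a, a subunit of the coat of export vesicles, was at 23.8 ± 1.9 and 28.4 ± 2.0 FPKM, and Adamts14, which removes amino-terminal propeptides, at 2.80 ± 0.48 and 4.25 ± 0.98 FPKM (SD, n = 3 each). Of 14 tested genes of crosslinking and assembly, 1 rose (median log2 change 0.34). Bgn, biglycan, a small proteoglycan that binds collagen, was at 729.3, 571.6 and 672.6 FPKM in the untreated and at 1278, 960.3 and 1185 FPKM with ET-1, with no overlap (log2 change 0.79 ± 0.16, SE; limma adjusted p = 0.0480, n = 3 each). Bgn did not pass with equal medians (adjusted p = 0.0582), with a pseudocount of 5 (0.0532) or without the filter (0.0891). Lox, the enzyme that starts crosslinking, was at 195.7, 208.5 and 187.3 against 387.0, 203.8 and 390.7 FPKM. ET-1 library 2 lay within the untreated range, and Lox did not pass (limma adjusted p = 0.167).

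Of 7 tested collagen receptors 2 rose and none fell (0 lower at an unadjusted p under 0.05). Mrc2, an endocytic receptor that takes up collagen fragments, was at 2.82, 2.2 and 2.49 FPKM in the untreated and at 6.53, 4.55 and 8.28 FPKM with ET-1 (log2 change 1.06 ± 0.20, SE; limma adjusted p = 0.0435, n = 3 each). Itga11, the α11 integrin subunit that binds fibrillar collagen, was at 0.48, 0.83 and 0.87 against 1.69, 1.94 and 1.69 FPKM (limma adjusted p = 0.0455, n = 3 each), and it too reached the testing level only through the ET-1 libraries. Itga11 did not pass limma without the filter (adjusted p = 0.063), with a pseudocount of 0.1 (0.0551) or with quantile normalization (0.0516). Ddr2, a receptor kinase for fibrillar collagen, was at 11.4 ± 2.6 and 11.6 ± 2.7 FPKM (SD, n = 3 each).

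None of 10 tested genes of collagen breakdown and its inhibition passed limma (0 higher and 2 lower at an unadjusted p under 0.05, median log2 change 0.03). The list mixes proteases with the metalloproteinase inhibitors Timp1, Timp2 and Timp3, so its median does not describe the proteases alone. Mmp2, a gelatinase that digests unfolded collagen, was at 62.7, 15.4 and 53.8 FPKM in the untreated and at 16.8, 6.80 and 13.1 FPKM with ET-1, with untreated library 2 inside the ET-1 range. Its log2 change of -1.62 ± 0.55 (SE; n = 3 each) did not pass (limma adjusted p = 0.138), and it fell in the fit with the replicate block (adjusted p = 0.0108). The collagenase Mmp13 was at 1.27 ± 1.03 and 2.95 ± 2.65 FPKM, the membrane collagenase Mmp14 at 104 ± 15 and 138 ± 32 FPKM and the lysosomal collagenase Ctsk at 13.1 ± 3.5 and 5.93 ± 2.63 FPKM (SD, n = 3 each).

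None of 23 tested regulators of collagen transcription passed limma (1 higher and 3 lower at an unadjusted p under 0.05, median log2 change 0.03). The 1 higher was Fli1, at 0.62 to 0.75 FPKM in the untreated and 1.0 to 1.08 FPKM with ET-1. Fli1 reached the testing level only through the ET-1 libraries, so a difference was built into its being tested. Tgfb2, a growth factor that raises collagen transcription, was at 12.03 ± 0.66 and 6.41 ± 2.01 FPKM (SD, n = 3 each; limma adjusted p = 0.0741), and it fell in the fit with the replicate block (adjusted p = 0.0306). Ctgf, the connective tissue growth factor, was at 1163, 995.5 and 1136 FPKM in the untreated and at 531.1, 897.3 and 840.0 FPKM with ET-1. All ET-1 values of Ctgf lay below the untreated ones, and it did not pass (limma adjusted p = 0.163). Sox9, a factor that activates Col2a1 in cartilage and is present in Sertoli cells, was at 36.6 ± 21.4 and 44.0 ± 17.4 FPKM, and Tgfb1 at 32.2 ± 6.7 and 54.6 ± 36.2 FPKM (SD, n = 3 each).

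Among 33 non-fibrillar collagen genes, 17 were tested, 2 rose and none fell in limma (6 higher and 2 lower at an unadjusted p under 0.05), with a median log2 change of 0.62. Col16a1, a chain that associates with the surface of fibrils, was at 16.0, 15.5 and 15.7 FPKM in the untreated and at 34.4, 31.3 and 34.1 FPKM with ET-1 (log2 change 1.03 ± 0.09, SE; limma adjusted p = 0.00837, n = 3 each). Col15a1, a chain of the basement membrane zone, was at 14.8 ± 2.4 and 55.1 ± 25.8 FPKM (SD, n = 3 each; adjusted p = 0.0373). With the replicate block 7 of the non-fibrillar genes rose and 2 fell. Whether the fibrillar and the non-fibrillar genes differed in their change was not tested.

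**Figure D5:**
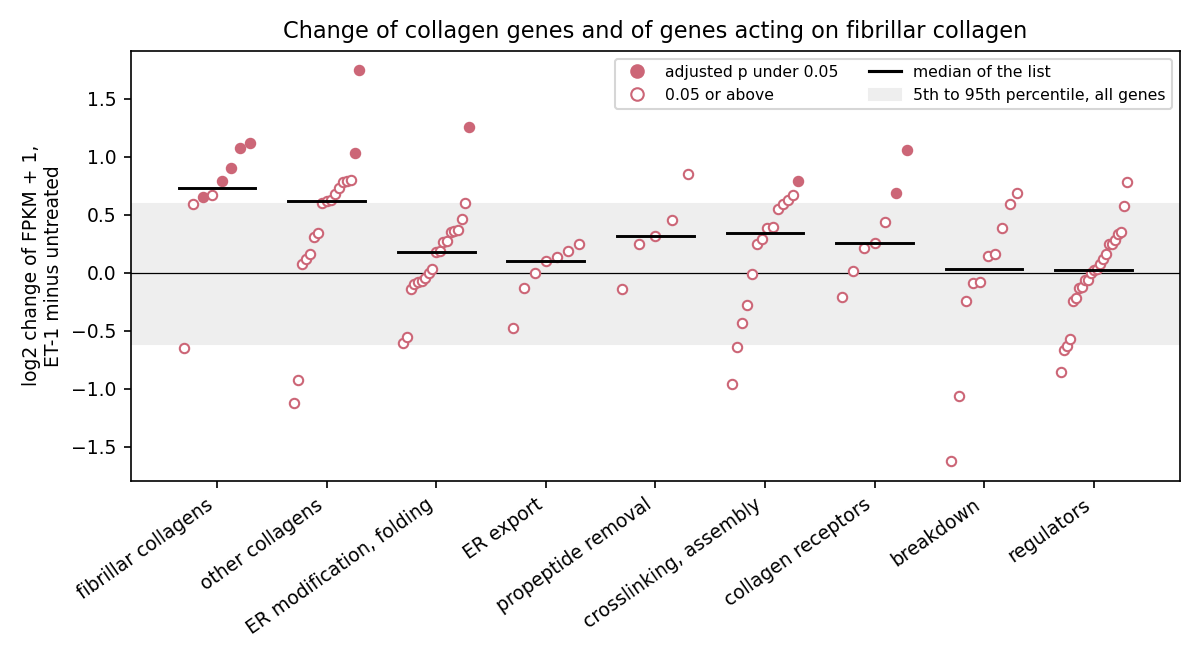
Change of each tested gene on the log2(FPKM + 1) scale, ET-1 minus untreated, for the collagen genes and 7 lists of genes that act on fibrillar collagen; filled points had an adjusted p under 0.05, bars are medians and the grey band spans the 5th to the 95th percentile of all tested genes. The medians are 0.73 for the fibrillar and 0.62 for the other collagens and between 0.03 and 0.34 for the 7 lists. The breakdown list also holds the inhibitors Timp1, Timp2 and Timp3.

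Markers of other cells of the testis also differed between the groups, and in a bulk library fewer cells of a type and less RNA per cell cannot be told apart. The summed level of 15 macrophage markers was 143.0 to 243.3 FPKM in the untreated and 380.3 to 850.7 FPKM with ET-1, with 2 genes higher and none lower in limma (10 higher and 0 lower at an unadjusted p under 0.05) and none at 0 throughout. The macrophage genes that rose were Lyz2, a lysozyme (34.9 to 57.6 against 116.4 to 308.4 FPKM), and Mmp12, an elastase (2.78 to 10.9 against 24.2 to 58.3 FPKM). The summed level of 10 endothelial markers was 61.3 to 97.4 FPKM against 27.2 to 47.8 FPKM, with 4 genes lower, among them Egfl7, Esam and Emcn, and none at 0 throughout. Of the 6 tested, 5 had a negative change. Cdh5, the most abundant of the list, had a positive one (0.25) and overlapped, at 9.94 to 20.7 against 11.2 to 24.8 FPKM. The summed level of 12 Sertoli cell markers was 1117 to 2648 FPKM against 3181 to 6937 FPKM, with 2 higher (Aard and Gstm6) and none at 0 throughout. Most of that sum was Clu, clusterin (839.7 to 1879 against 2579 to 5624 FPKM), and without it the sums overlapped, at 277.6 to 769.5 against 512.4 to 1313 FPKM. Sox9, Wt1, Cldn11, Dhh, Rhox5, Gata4 and Fshr overlapped between the groups. Inha did not overlap, at 24.7 to 30.8 against 48.8 to 168.4 FPKM, and did not pass (limma adjusted p = 0.0861). Amh, below 1 FPKM in every library and not tested, did not overlap either (0.23 to 0.39 against 0.55 to 0.96 FPKM). At an unadjusted p under 0.05 in limma, 4 Sertoli cell markers were higher and 0 lower. Sums without the most abundant gene of a list were added after seeing the data, and those of the macrophage markers without Lyz2 (108.1 to 185.7 against 263.9 to 542.3 FPKM) and the endothelial markers without Cdh5 (51.4 to 76.8 against 14.4 to 23.0 FPKM) did not overlap. The sum of 8 Leydig cell markers, none at 0 throughout, overlapped at 2393 to 5016 FPKM against 882.9 to 2479 FPKM, and that of 9 germ cell markers, of which Sall4 was at 0 throughout, at 8.53 to 14.7 FPKM against 7.38 to 17.9 FPKM. With the replicate block the Leydig genes Insl3 (log2 change -1.53, adjusted p = 0.0101) and Cyp11a1 (-1.09, 0.00945) fell and Star (0.81, 0.0463) rose. Under the block 7 macrophage markers rose and 1 fell, 5 Sertoli cell markers rose, 5 endothelial markers fell, and 3 fibroblast markers rose and 2 fell. Of all tested genes 4.26% rose and 5.19% fell under the block, and 1.57% and 1.89% in limma without it. At an unadjusted p under 0.05, 10.6% were higher and 13.5% lower. Kdr, among the 5 endothelial markers, reached the testing level only through the untreated libraries. Adgre1, among the 10 macrophage markers, did so only through the ET-1 libraries, so neither adds support.

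Fibroblasts make much of the fibrillar collagen of connective tissue, and of 12 fibroblast markers 2 were higher and 1 was lower in limma. Thy1, a surface glycoprotein of fibroblasts, was at 2.02 to 2.40 FPKM in the untreated and at 12.4 to 15.9 FPKM with ET-1, and Fbln1, a matrix protein, at 1.72 to 2.02 FPKM against 3.23 to 4.61 FPKM. Ly6a, a surface antigen of stromal, endothelial and progenitor cells, was at 390.0 to 486.3 FPKM against 77.9 to 112.6 FPKM. The summed fibroblast level, of which Ly6a is the largest part, was 511.9 to 611.0 FPKM against 193.7 to 284.3 FPKM, and without Ly6a the sums overlapped (121.9 to 126.8 against 115.8 to 171.7 FPKM). Lum, Dpt, Pi16 and Clec3b stayed below 1 FPKM in every library, and no marker was at 0 throughout. The 9 myoid and smooth muscle markers overlapped in their sum, at 3215 to 3702 FPKM against 3655 to 5224 FPKM (without Acta2 separate, at 1740.5 to 2051 against 2126 to 3012 FPKM), and none passed limma (3 higher and 0 lower at an unadjusted p under 0.05). Myh11, smooth muscle myosin, was at 51.2, 43.3 and 51.1 FPKM in the untreated and at 30.4, 48.4 and 22.2 FPKM with ET-1, and Mylk, myosin light chain kinase, at 57.4 to 64.1 against 65.9 to 98.3 FPKM. The part of these cell types in the collagen values was not tested.

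The authors' deposited table gave a q-value under 0.05 to 8 of the 10 members and to 66.1% of 16812 genes. In the authors' deposited table Col1a1 had a log2 fold change of 1.11, Col3a1 of -0.66 and Col27a1 of 1.71, whereas Col2a1 (q = 0.225) and Col24a1 (q = 0.087) were not under 0.05.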

How the data were processed

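RNA from 6 libraries of primary peritubular myoid cultures was sequenced, 3 untreated and 3 with ET-1, grouped by the sample titles. The submitters' processing notes name mm10 as the genome build and list RSEM 1.2.12, Bowtie2 2.2.5 and HISAT2 2.0.4 without saying what each did. The authors deposited 1 table with an FPKM value per gene and library, rounded to 2 decimals, and, per the file headers, a mean FPKM per group, a log2 fold change, and, for each gene, a q-value and a p-value. The sources used here do not say how replicates entered that comparison.

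Of 22135 rows, 19285 had values. Genes at 1 FPKM or more in at least 3 libraries (11664) were tested two-sided with limma 3.58.1 (R 4.3.3) on log2(FPKM + 1), with a mean-variance trend and no covariate, and p-values were adjusted over all tested genes (Benjamini-Hochberg). Changes of genes near or below 1 FPKM come out too small on this scale. Ratios between chains were compared with an exact permutation test (SciPy 1.17.1). The limma step was tested on simulated data. Fragment numbers are estimates from steps between low FPKM values (82.9% to 88.3% of values within 0.15 of a whole number). RSEM values need not be whole, so no count test was run.

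Deviations from the group means correlated across genes between libraries with the same number (0.228, 0.523 and 0.202), so a fit with the replicate number as a block was also made. The labels do not say what a number stands for, and libraries of other numbers reached 0.271, so numbers 1 and 3 are not shown to pair.

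Members, lists and tests were chosen with earlier results of these data known. Named were all members, from each list up to 3 passing genes in each direction (the gene of smallest p where none passed), 11 further genes (Serpinh1, Lox, Sox9, Mmp2, Mmp13, Mmp14, Ddr2, Tgfb1, Ctgf, Acta2 and Myh11), and the 5 genes most like type I or type III in profile. Alternatives were other pseudocounts, no filter, other scalings, no variance trend, the block, leaving out each library, and averaging untreated libraries 1 and 3.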

Additional observations from a re-analysis of the deposited data

How the results depend on the processing

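Over all genes 183 rose and 221 fell; the counts were 92 and 101 without the filter, 497 and 605 with the replicate block and 2 and 7 with untreated libraries 1 and 3 averaged. Leaving out each library gave 0 to 322 higher and 0 to 475 lower. Of the members, 5 rose and 0 fell; 2 rose without the filter and 0 with untreated libraries 1 and 3 averaged, 1 fell with the replicate block, and leaving out each library gave 0 to 4 higher. A pseudocount of 5 lost the calls of Col27a1 (adjusted p = 0.0517), Bgn (0.0532), Mrc2 (0.0545), Fbln1, Gstm6 and Gpc6. Of the other collagens and the genes acting on collagen, 6 rose, Itga11 included, and 0 fell. Of these lists 1 gene rose without the filter, 0 with the averaged libraries, and 15 rose and 5 fell with the replicate block. Leaving out each library gave 0 to 5 higher and 0 to 4 lower.

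No call of a named gene changed sign under the alternatives run. Uncalled values that changed sign were Col5a3 (from -0.022 without ET-1 library 3 to 1.09 without ET-1 library 2) and Ddr2 (-0.17 without untreated library 2, -0.08 without ET-1 library 1, -0.08 without ET-1 library 3, and up to 0.21 without ET-1 library 2). The log2 difference of the Col1a1 to Col1a2 ratio (-0.04) changed sign in 2 of 6 fits that left out a library, and ran from -0.13 to 0.012. The other 4 ratios kept their sign. The replicate block changed no further member's call beyond Col3a1 and Col5a1. The causes were not tested. Depth limits Col2a1 and Col24a1, which rested on 2 to 19 fragments.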
